A study of Homo sapiens with 20 samples.

Results

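Differentiated Caco-2 cells kept for 24 h with the cell-free culture supernatant of Lactobacillus acidophilus NCFM were compared with Caco-2 cells kept for 8 h in medium alone. The members are the 4 arrays whose labels name these treatments, 2 for each, out of 20 arrays in the series. Caco-2 cells derive from a human colon cancer and come to resemble absorptive enterocytes once confluent, and here they had been differentiated on inserts for 5 days. NCFM, a probiotic Lactobacillus strain, was grown without oxygen in MRS broth with added glucose, per the labels' protocols. Its supernatant was freed of bacteria, diluted to 10% of the medium volume, filtered sterile and placed on the apical side of the cells.

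Other groups of the same array set, also labelled from 5 µg of RNA, served as reference points. These were supernatants of Bifidobacterium lactis 420 and Lactobacillus salivarius Ls-33 for 24 h, with 2 arrays each, and live NCFM cells for 8 h, with 2 arrays. A 24 h medium group of 3 arrays belongs to another array set, labelled from 1 µg of RNA. The comparison with 8 h medium therefore joins 3 differences, the supernatant, the broth it carries and the time. The series holds no broth control. The series describes the probiotic samples as analysed in duplicate, so a pair of arrays could stem from 1 culture, and p-values measure only the spread between arrays, which may be technical. In such whole-culture RNA, fewer cells of a type and less RNA per cell cannot be told apart.

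The median log2 signal was 2.66 to 2.72 in all 20 arrays, and within-group correlations over probe sets were 0.994 to 0.997. Beta-actin is read by separate 3' and 5' control probe sets, whose difference widens as RNA degrades or labelling shortens, and this was 1.02 and 1.08 with NCFM supernatant and 0.88 and 0.80 with 8 h medium. It moved with the treatment, and its part in the results below was not tested. For GAPDH the same difference was -0.023 and -0.0048 against 0.020 and -0.035, with overlapping groups. The epithelial markers EPCAM, CDH1 and VIL1 were high in both groups. Mean log2 levels in 8 h medium and with supernatant were 13.05 and 13.23 for EPCAM, 12.62 and 12.66 for CDH1 and 12.45 and 12.45 for VIL1. Of 11 measured defining epithelial markers, 1 lay under the filter's floor of log2 2.74 in 8 h medium and 0 with supernatant. KRT20, a keratin of mature intestinal cells, rose by 0.57 (limma adjusted p = 1.60e-06), while KRT8 fell by 0.24 and KRT18 by 0.20. KRT8 lost its call without NCFM supernatant replicate 1 (adjusted p = 0.0535). Of 12 measured leukocyte markers, 7 lay under the filter's floor of log2 2.74 in both groups, PTPRC among them at 1.70 and 2.0, and 0 of 5 tested members were called by limma, with 1 at an unadjusted p under 0.05.

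An enterocyte layer meets bacterial products at its apical surface, and lactobacilli release mainly lactic acid together with peptides, surface proteins and metabolites of the broth. Epithelial cells answer such signals through growth factor and stress kinases, which act on immediate early genes and on the AP-1 factors Fos and Jun. They also answer through the aryl hydrocarbon receptor, a sensor of planar aromatic compounds, and through NF-kB, which drives chemokine genes.

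The promoters below are shown because LRRC15, C6orf141 and TNFRSF9 are among the 12 largest rises with the AP-1 letters TGANTCA before their start, and CCL20 is the gene with the firmest difference between supernatants. Each is the stretch of 250 bases before the gene's start in RefSeq, build GRCh38.p14, read 5′ to 3′ along the gene. Capitals mark the AP-1 letters in the first 3 genes and the NF-kB site in CCL20.
LRRC15: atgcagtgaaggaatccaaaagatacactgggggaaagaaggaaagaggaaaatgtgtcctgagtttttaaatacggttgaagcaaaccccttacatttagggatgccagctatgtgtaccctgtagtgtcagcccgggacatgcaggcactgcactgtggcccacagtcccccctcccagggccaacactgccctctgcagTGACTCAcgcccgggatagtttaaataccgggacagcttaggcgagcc
C6orf141: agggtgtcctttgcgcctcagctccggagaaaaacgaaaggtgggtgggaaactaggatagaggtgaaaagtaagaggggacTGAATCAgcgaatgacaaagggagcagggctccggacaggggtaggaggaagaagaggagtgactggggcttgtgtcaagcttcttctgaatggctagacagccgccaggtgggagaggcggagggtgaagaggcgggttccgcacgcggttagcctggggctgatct
TNFRSF9: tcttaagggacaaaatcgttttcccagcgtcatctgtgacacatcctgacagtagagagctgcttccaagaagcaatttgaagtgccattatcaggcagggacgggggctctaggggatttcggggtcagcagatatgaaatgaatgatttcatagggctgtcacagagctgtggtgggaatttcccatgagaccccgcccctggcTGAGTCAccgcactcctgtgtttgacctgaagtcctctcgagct
CCL20: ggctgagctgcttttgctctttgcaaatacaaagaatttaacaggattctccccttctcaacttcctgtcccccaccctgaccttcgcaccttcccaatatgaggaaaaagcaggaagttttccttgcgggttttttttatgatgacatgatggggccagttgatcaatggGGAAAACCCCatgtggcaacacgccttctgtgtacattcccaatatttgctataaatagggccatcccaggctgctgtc

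The stretch of LRRC15 lies at chr3:194369744-194369993 on the minus strand, that of C6orf141 at chr6:49550418-49550667 on the plus strand, that of TNFRSF9 at chr1:7940840-7941089 on the minus strand and that of CCL20 at chr2:227813592-227813841 on the plus strand. The marked letters begin 48, 168, 44 and 79 bases before the start in the same order. Motifs were searched on both strands. A gene counts if any of its stretches holds the letters, while the shares over all stretches count each stretch by itself. MAP1B, TRPM6 and NFKBIZ had more than 1 stretch, so counts of genes can run higher than those shares. The AP-1 letters occurred in 3 of the 7 largest rises with a promoter entry and in 6.57% of 35116 RefSeq promoter stretches of this length. The match in TNFRSF9 overlaps the antioxidant element letters TGACNNNGC of the other strand, and that in LRRC15 overlaps the aryl hydrocarbon receptor core GCGTG of the other strand. The core occurred in 4 of the 7 rises (C6orf141, CA12, LRRC15 and MAP1B) and in 32.2% of all stretches. Of the 12 largest falls, 10 had an entry, of which 1 held the AP-1 letters and 7 held CCAAT, the letters bound by nuclear factor Y, which 32% of all stretches hold. The NF-kB site, a motif added after the values were seen, occurred in CCL20 and NFKBIZ among the 5 entries for genes that differed between supernatants, and in 9.96% of all stretches. It also occurred, unmarked above, in TNFRSF9 as 1 of the 7 rises, and in 0 of the 10 falls. The hypoxia core ACGTG occurred in 0 of the 7 rises, 1 of the 10 falls and 18.5% of all stretches. A match describes letters only, and binding was not measured.

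Against 8 h medium, the supernatant arrays showed more of a matrix protease, of hypoxia and glycolysis genes and of immediate early genes, and less of secreted plasma proteins and of replication genes. Most differences were small. At an adjusted p under 0.05 by limma, 1336 of 11865 tested genes (11.3%) were called, of which 627 (5.28%) were higher and 709 (5.98%) lower, and in all 1336 the arrays of both groups did not overlap. The median size among the called genes was 0.42 on the log2 scale, and 33 changed at least 2-fold, 21 up and 12 down. Each array carried part of the count. Without NCFM supernatant replicate 1 there were 489 calls and without replicate 2 863, while without medium replicate 1 there were 768 and without replicate 2 642. No call shared with these reduced fits turned its direction.

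MMP1, a collagenase that cuts fibrillar collagens, rose most. Its log2 level was 4.95 and 4.93 in the medium arrays and 7.31 and 7.36 in the supernatant arrays, a 5.26-fold rise (log2 difference 2.40 ± 0.20 SE, limma adjusted p = 5.82e-07). Arrays of each group were close together and the groups lay far apart. LRRC15, a leucine-rich repeat membrane protein, read 6.04 and 5.39 in medium and 7.49 and 7.65 with supernatant, a 3.63-fold difference. ARL14, a small GTPase of the ARF-like family, read 6.76 and 5.45 against 7.72 and 7.66, and rose by 1.59 ± 0.24 (limma adjusted p = 3.12e-04). Its medium arrays were the least alike among the 12 rises, which were chosen from genes whose groups do not overlap.

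**Figure D1:**
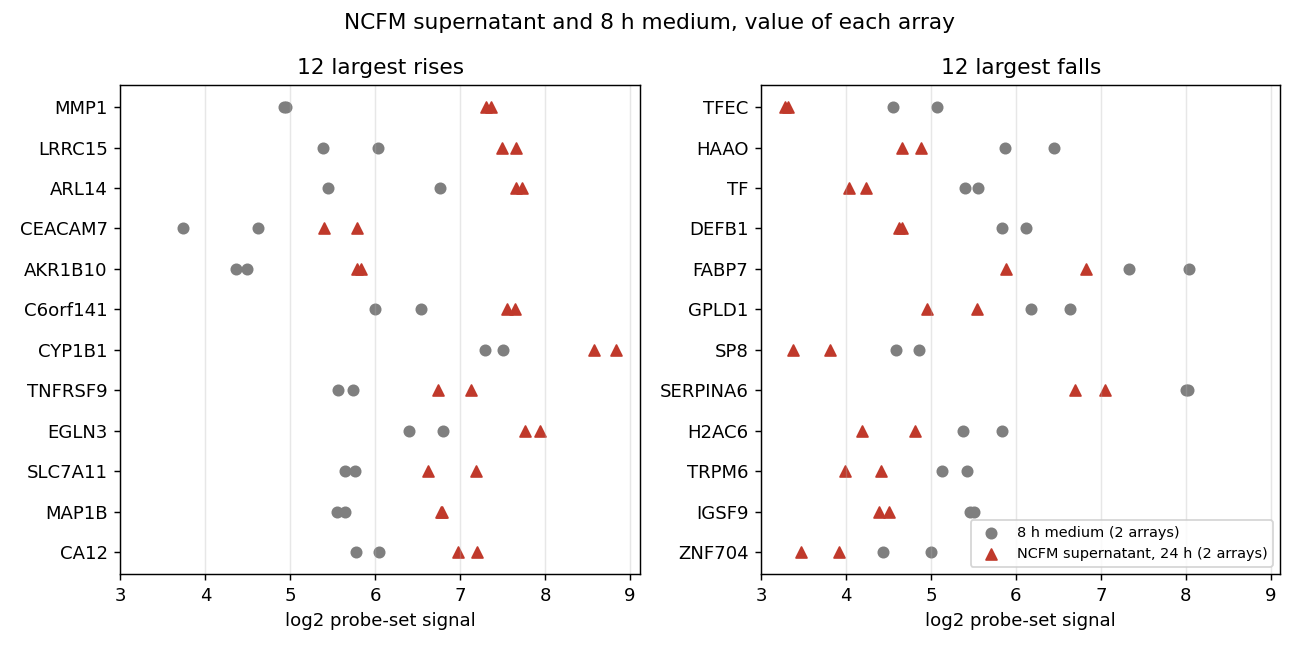
Log2 probe-set signal of each array for the 12 largest rises (left) and the 12 largest falls (right), with 2 arrays of 8 h medium as grey circles and 2 arrays of NCFM supernatant as red triangles. Only genes whose groups do not overlap could be chosen, and the distance is widest for MMP1, from 4.95 and 4.93 to 7.31 and 7.36.

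The 12 largest rises held CYP1B1, AKR1B10 and SLC7A11, genes of xenobiotic and redox metabolism. CYP1B1, an oestrogen and xenobiotic hydroxylase under the aryl hydrocarbon receptor, read 7.51 and 7.29 in medium and 8.84 and 8.58 with supernatant, a rise of 1.31 ± 0.11 (SE, limma adjusted p = 8.22e-07). AKR1B10, a reductase of retinal and lipid aldehydes, read 4.49 and 4.37 against 5.84 and 5.78, and rose by 1.38 ± 0.17 (adjusted p = 3.20e-05). The supernatant arrays were above the medium arrays by more than 1 log2 unit for both genes. SLC7A11, the cystine importer that feeds glutathione synthesis, read 5.76 and 5.65 against 6.62 and 7.18, and its supernatant arrays were less alike. GCLM, the modifier subunit of the first enzyme of glutathione synthesis, rose from 7.40 and 7.26 to 8.20 and 8.24, by 0.89.

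Of 13 tested aryl hydrocarbon receptor targets and regulators, 3 rose and 0 fell, with a list median of 0.16 beside -0.017 over all tested genes. Besides CYP1B1 these were TIPARP, a feedback inhibitor of the receptor, at 0.69 (limma adjusted p = 7.22e-04), and its partner ARNT at 0.61. ARNT lost its call without NCFM supernatant replicate 2 (adjusted p = 0.13) or medium replicate 1 (adjusted p = 0.181), and 2 of its other probe sets differed by -0.31. CYP1A1, the receptor's best known target, was already near the top of the scale in medium, at 12.20 and 12.14, and read 12.29 and 12.36 with supernatant. Its difference of 0.16 did not pass (limma adjusted p = 0.0588), but did with the filter at the 60th percentile (0.046) or with only the 2 groups compared (0.023). Of 27 NRF2 antioxidant targets 9 rose and 3 fell, with a median of 0.12. SQSTM1, a selective autophagy receptor, rose by 0.57 (limma adjusted p = 8.49e-06). With eBayes without a trend the list held 5 rises and 2 falls. Among 8 aldo-keto reductases AKR1B10 was the 1 call. Of 20 conjugating enzymes and transporters 2 rose and 3 fell, with the glutathione transferase gene GSTA4 up by 0.34, and 1 fell without NCFM supernatant replicate 1 or medium replicate 1. Of 16 cytochrome P450 and nuclear receptor genes 1 rose and 2 fell, and calls in each direction numbered 0 to 2 when 1 array was left out.

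Genes of oxygen sensing and glycolysis made up the list with the most rises. Of 40 tested hypoxia and glycolysis genes, 17 rose and 1 fell, beside 5.28% and 5.98% over all genes, and the list median was 0.11. EGLN3, a prolyl hydroxylase that marks hypoxia-inducible factor for decay, read 6.40 and 6.80 in medium and 7.94 and 7.76 with supernatant (rise of 1.25 ± 0.16, limma adjusted p = 4.44e-05). CA12, a membrane carbonic anhydrase that hydrates carbon dioxide outside the cell, read 5.78 and 6.04 against 6.98 and 7.19, and rose by 1.18. ANKRD37 rose by 0.46, DDIT4, an inhibitor of mTORC1, by 0.57 and ERO1A, an oxidase of disulfide formation, by 0.54. The number of rises was 10 without NCFM supernatant replicate 1, 10 without medium replicate 1 and 10 with eBayes without a trend. Of 25 lactate and proton handling genes 3 rose and 2 fell, with 0 falls without either NCFM supernatant array or medium replicate 1. Among them were CA12 and the monocarboxylate transporter family member SLC16A4, which rose by 0.70.

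Immediate early genes were called in 1 direction only, although 7 of the 31 tested members lay below 0. Of 31 tested members, 12 rose and 0 fell, and the median was 0.27. JUN, a subunit of AP-1, read 6.85 and 6.67 in medium and 7.84 and 7.51 with supernatant (0.91 ± 0.14, limma adjusted p = 2.17e-04). KLF4, a factor of epithelial differentiation, rose by 0.73, TRIB1, a pseudokinase, by 0.70 and the MAP kinase phosphatase DUSP1 by 0.64. Other probe sets of KLF4 (0.51), TRIB1 (0.56) and DUSP1 (0.70 and 0.058) were not called (limma adjusted p from 0.0509 to 0.9). For JUN, a further probe set was called (0.62) and others were not (0.47 and 0.16). FOS read 6.85 and 7.07 against 7.16 and 7.54 (0.39, limma adjusted p = 0.0803), and passed only without NCFM supernatant replicate 1 (0.58, adjusted p = 0.0467). EGR1 read 12.54 and 12.49 against 12.61 and 12.71, a difference of 0.15 (limma adjusted p = 0.13). Leaving out 1 array at a time gave 8 to 10 rises in the list.

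Adhesion and protease receptors were higher as well. Of 26 integrin and focal adhesion genes, 9 rose and 1 fell (median 0.17). ITGA2, the collagen-binding integrin subunit, rose from 9.46 and 9.40 to 10.17 and 9.98, by 0.65 (limma adjusted p = 3.88e-05). PLAUR, the urokinase receptor, rose from 7.62 and 7.70 to 8.61 and 8.23, by 0.76, and ANXA1, an annexin, by 0.45. Rises in this list numbered 4 without NCFM supernatant replicate 1, 4 without medium replicate 1 and 4 with eBayes without a trend. MAP1B, a microtubule-associated protein, read 5.64 and 5.55 against 6.77 and 6.78 and is among the 12 largest rises. Of 29 collagen, laminin and matrix genes 3 rose and 4 fell, with fewer falls in each fit that left out 1 array. COL12A1 fell by 0.52. LOX, the collagen cross-linking enzyme, rose by 0.49. Other LOX probe sets differed by 0.21 and 0.14 and were not called (limma adjusted p = 0.189 and 0.628).

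The rest of the 12 largest rises were TNFRSF9, CEACAM7 and C6orf141. TNFRSF9, the receptor 4-1BB of the TNF receptor family, read 5.56 and 5.73 in medium and 6.74 and 7.13 with supernatant, a rise of 1.29 ± 0.16 (limma adjusted p = 3.36e-05). Its family list, with TRAIL and BCL2 members, had 7 rises and 1 fall among 28, but 3 rises without NCFM supernatant replicate 1, without medium replicate 1 or with eBayes without a trend. CEACAM7, an adhesion glycoprotein of colonic epithelium, read 4.62 and 3.74 against 5.40 and 5.79. It rose by 1.42 (limma adjusted p = 0.0024) and lost its call without medium replicate 2 (0.98, adjusted p = 0.0644). C6orf141 read 6.0 and 6.54 against 7.65 and 7.55. Of 13 mucin and trefoil genes 4 rose and 0 fell, though the list median was 0.014. MUC13, a membrane mucin, rose by 0.59, the trefoil peptide gene TFF1 by 0.68 and AGR2, a disulfide isomerase of mucin folding, by 0.36.

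**Figure D2:**
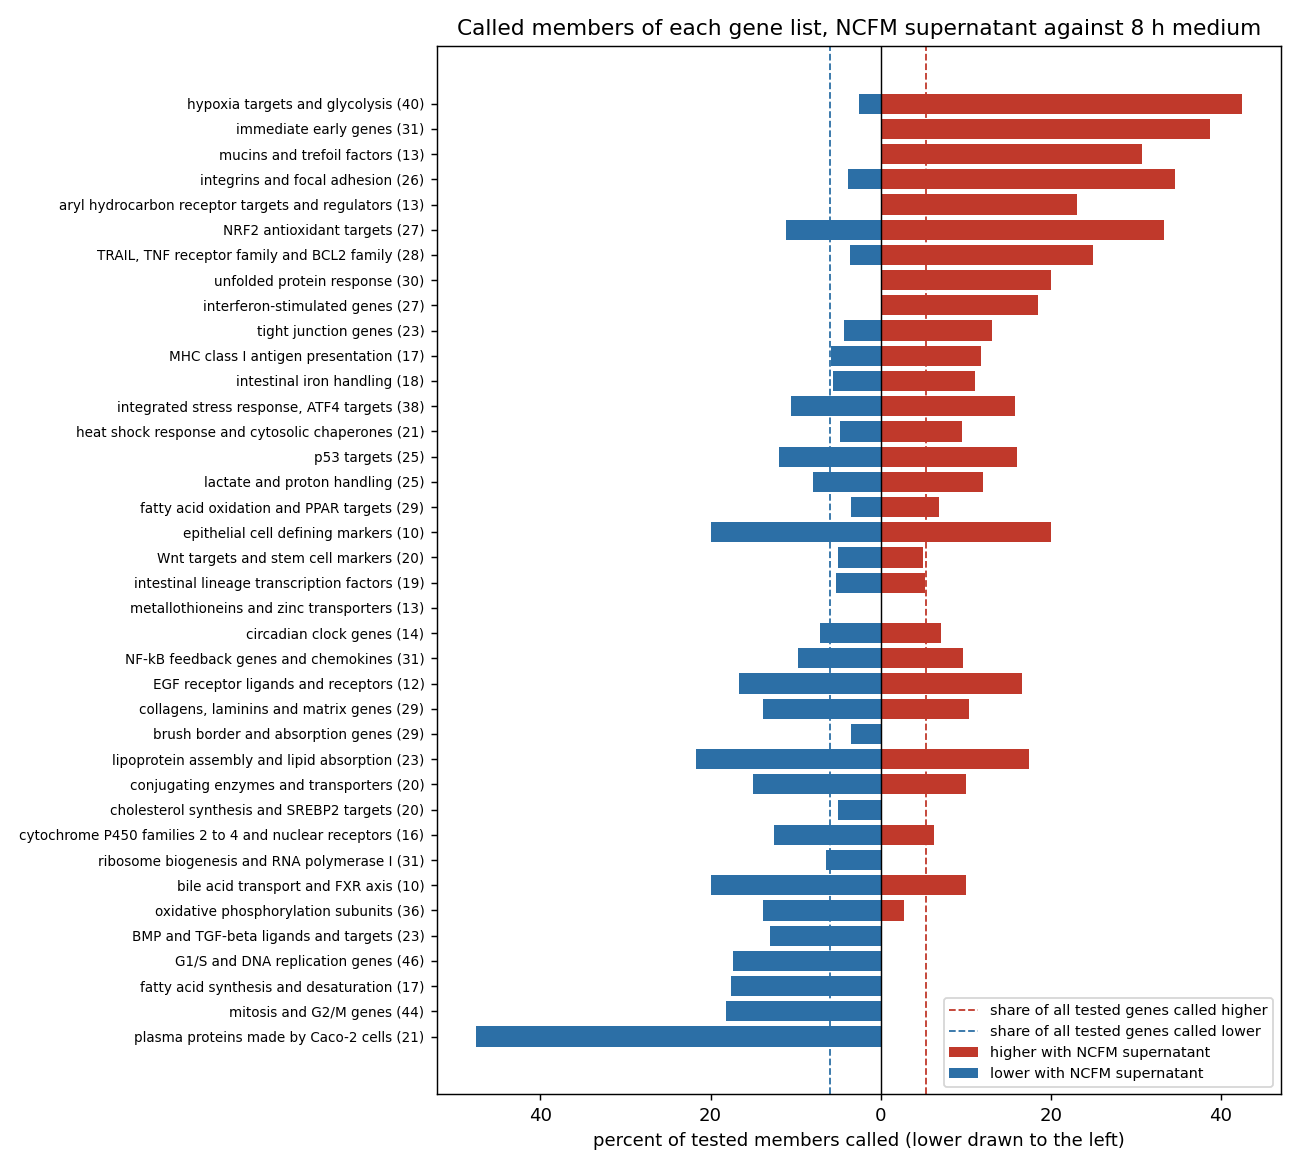
Share of the tested members of each gene list that were called higher (red, to the right) or lower (blue, to the left) with NCFM supernatant than with 8 h medium, in percent, for the lists of at least 10 tested members, with the number tested in brackets. Dashed lines mark 5.28% and 5.98%, the shares over all 11865 genes, and the longest bars belong to hypoxia targets (17 of 40 higher) and plasma proteins (10 of 21 lower).

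Among the falls, proteins that differentiated Caco-2 cells secrete in the manner of liver cells stood out. Of 21 plasma protein genes 10 fell and 0 rose, the median was -0.30, and leaving out 1 array at a time gave 7 or 8 falls. Transferrin, TF, the iron carrier of blood, read 5.55 and 5.41 in medium and 4.24 and 4.04 with supernatant (-1.34 ± 0.17, limma adjusted p = 3.46e-05). The subunits of C4b-binding protein, an inhibitor of complement, fell together, C4BPA from 11.33 and 11.24 to 10.44 and 10.59 and C4BPB from 7.02 and 7.15 to 6.13 and 6.23. TTR, the thyroxine carrier, fell by 0.36. SERPINA6, the corticosteroid-binding globulin, read 8.02 and 8.0 against 6.70 and 7.05, and fell by 1.14 (limma adjusted p = 6.34e-04). The supernatant arrays of these named genes lay below both medium arrays.

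The largest fall was in TFEC, a transcription factor of the MiT family, from 4.56 and 5.08 to 3.31 and 3.28 (-1.52 ± 0.20, limma adjusted p = 6.06e-05). HAAO, which makes quinolinate from tryptophan on the way to NAD, read 5.87 and 6.45 against 4.65 and 4.88, a fall of 1.39. DEFB1, the constitutive epithelial beta-defensin, read 6.12 and 5.83 against 4.63 and 4.66, a fall of 1.33 (limma adjusted p = 1.04e-04). TRPM6, the magnesium channel of intestine and kidney, read 5.43 and 5.13 against 3.98 and 4.41. SP8, a zinc finger factor, read 4.86 and 4.59 against 3.37 and 3.81, and IGSF9, an immunoglobulin superfamily adhesion protein, 5.46 and 5.50 against 4.51 and 4.39. All of these were called in each of the 4 fits that leave out 1 array.

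The remaining large falls each lost their call, on the probe set used, when particular arrays were left out. FABP7, a fatty acid binding protein, read 8.04 and 7.33 in medium and 5.88 and 6.83 with supernatant, and lost its call without NCFM supernatant replicate 1 (-0.86, limma adjusted p = 0.054). GPLD1, a phospholipase that cleaves membrane anchors, changed by -1.16, and by -0.86 without NCFM supernatant replicate 2 (adjusted p = 0.0844) and -0.93 without medium replicate 1 (adjusted p = 0.0794). The histone gene H2AC6 changed by -1.11, and by -0.80 without NCFM supernatant replicate 2 (adjusted p = 0.125) and -0.88 without medium replicate 2 (adjusted p = 0.12). ZNF704, a zinc finger gene, changed by -1.02, and by -0.80 without NCFM supernatant replicate 1 and -0.74 without medium replicate 2. With all arrays, other probe sets of FABP7 (-1.44, limma adjusted p = 4.67e-05) and ZNF704 (-0.74, adjusted p = 0.0245) were also called lower. Another GPLD1 probe set was not called (-0.64, adjusted p = 0.0852).

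Replication and mitosis genes were lower. Of 46 G1/S and DNA replication genes 8 fell and 0 rose, 37 of the 46 lay below 0, and the median was -0.20. MCM3, a subunit of the replicative helicase, read 9.04 and 9.25 in medium and 8.37 and 8.33 with supernatant (-0.79 ± 0.087, limma adjusted p = 8.49e-06). GINS2, a partner of that helicase, fell from 7.21 and 7.02 to 6.14 and 6.22, by 0.93. Of 44 mitosis and G2/M genes 8 fell and 0 rose, also with 37 members below 0 and a median of -0.20. CCNB1, the mitotic cyclin, fell by 0.39 and CKS1B, a subunit of cyclin-dependent kinases, by 0.39. CDC25C, a phosphatase of mitotic entry, fell by 0.80, and lost its call without NCFM supernatant replicate 1 (adjusted p = 0.117) or medium replicate 1 (adjusted p = 0.0585). Without NCFM supernatant replicate 1 each list kept a count of 3 falls. Without the medium arrays in turn the first list had 5 and 4 falls and the second 4 and 5. CDKN1A, which encodes the cyclin-dependent kinase inhibitor p21, rose by 0.50 (limma adjusted p = 0.00501), and its call was lost without NCFM supernatant replicate 2 (adjusted p = 0.077) or medium replicate 1 (adjusted p = 0.0964). Of 25 p53 targets 4 rose and 3 fell, but 1 rose and 1 fell without NCFM supernatant replicate 1 or medium replicate 1, 2 rose without NCFM supernatant replicate 2, and 1 fell without medium replicate 2.

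**Figure D3:**
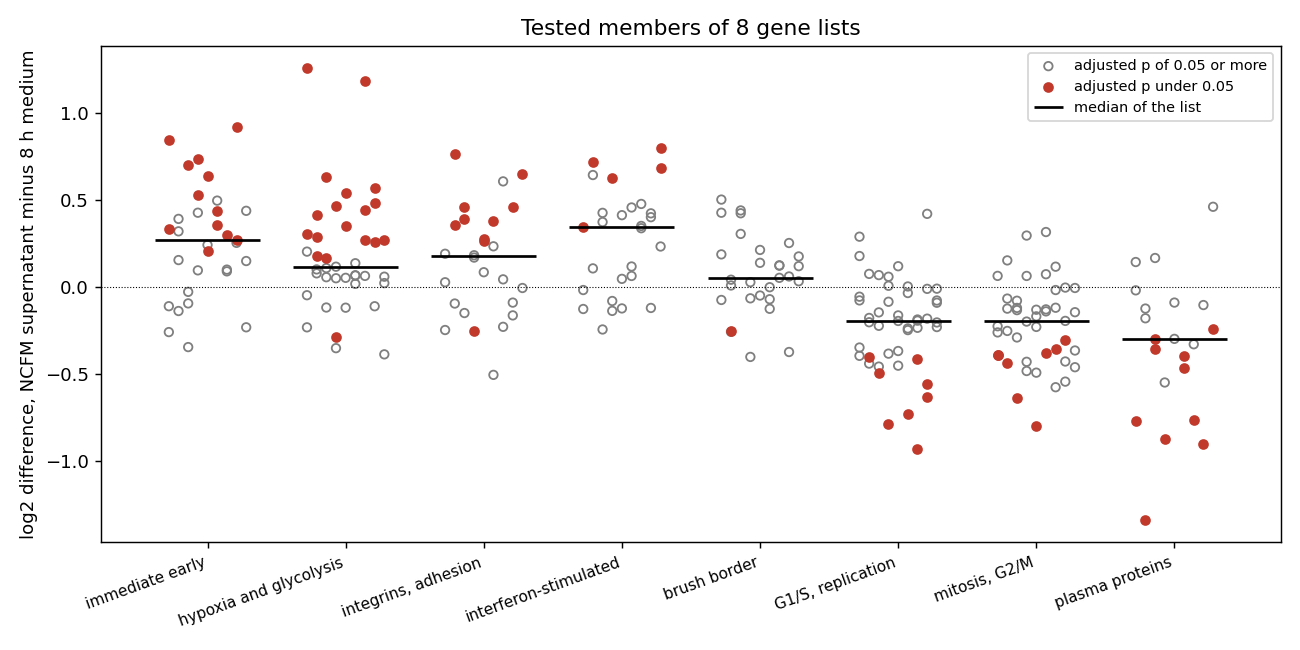
Log2 difference between NCFM supernatant and 8 h medium for each tested member of 8 gene lists, with called members filled in red, others open, and a bar at the list's median. Immediate early genes have a median of 0.27 and plasma proteins of -0.30, and the brush border list holds a single called member.

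Lists of absorptive functions differed in how many members were called. Of 29 brush border and absorption genes 0 rose and 1 fell, beside 11.3% over all genes, and the list median was 0.050. The 1 fall, MEP1A, a meprin peptidase, was -0.26 and was lost in each fit that left out 1 array (adjusted p from 0.0926 to 0.208). The fructose transporter SLC2A5 read 9.0 and 9.15 against 9.48 and 9.51, a difference of 0.42 (limma adjusted p = 0.161). A dimmer probe set of SLC2A5, at 3.19 and 3.45 against 4.32 and 3.79, was called (0.74, adjusted p = 0.0387), and a further one differed by 0.34 (adjusted p = 0.274). Of 23 lipoprotein and lipid absorption genes 4 rose and 5 fell, with 2 falls without NCFM supernatant replicate 1 or with eBayes without a trend. APOA4, an apolipoprotein of chylomicrons, rose from 12.11 and 12.11 to 12.73 and 12.82, by 0.66 (limma adjusted p = 8.22e-07), APOB rose by 0.42, PLIN2, a lipid droplet coat protein, by 0.48, and DGAT1, which makes triglyceride, fell by 0.61. Of 10 bile acid genes 1 rose and 2 fell (1 fell in each fit that left out 1 array). SLC51A, part of the exporter that passes bile acids to the blood side, rose from 9.67 and 9.74 to 10.56 and 10.70, by 0.92, while FABP6, the ileal bile acid binding protein, fell from 8.14 and 8.27 to 7.27 and 7.40, by 0.87.

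Barrier and inflammation genes were mixed. Among 23 tight junction genes 3 rose and 1 fell. CLDN23 rose by 0.73 and CLDN1 fell from 9.84 and 9.85 to 9.47 and 9.52 (-0.35, limma adjusted p = 0.00271), though another probe set of CLDN1 differed by 0.018. The differences of OCLN, 0.047, and TJP1, 0.15, did not pass (limma adjusted p = 0.569 and 0.0635), though TJP1 passed without medium replicate 2 (0.22, adjusted p = 0.0261) and with the filter at the 60th percentile (adjusted p = 0.0469). Of 31 NF-kB feedback and chemokine genes 3 rose and 3 fell, with 1 fall without NCFM supernatant replicate 1, without either medium array or with eBayes without a trend. IL32, a proinflammatory cytokine, rose by 0.68, CCL20, which attracts CCR6-bearing lymphocytes, fell by 0.42 (limma adjusted p = 0.00107), and NFKBIA, the IkB-alpha gene, fell by 0.27 with an adjusted p of 0.0498 that passed in no fit without 1 of the arrays (0.135 to 0.191). TNFAIP3 differed by 0.29 (limma adjusted p = 0.159) and PTGS2, cyclooxygenase 2, by 0.060 (adjusted p = 0.757). The probe sets of CXCL8, interleukin 8, differed. The one used here read 1.75 and 2.75 in medium and 2.59 and 2.63 with supernatant, with both group means under the floor of 2.74, and passed only without medium replicate 2 (0.86, adjusted p = 0.0404). The other, of the kind (suffix _x_at) whose probes can also bind other transcripts, read 3.12 and 2.84 against 4.62 and 4.56, and was called higher by 1.61 ± 0.19 (limma adjusted p = 3.6e-05). On that probe set the groups did not overlap, and B. lactis 420 supernatant read 4.28 and 4.10 and Ls-33 supernatant 5.28 and 4.76. The MIR146A probe set, which does not read the mature microRNA, was also under that floor.

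Interferon-stimulated genes were called in the upward direction only. Of 27 interferon-stimulated genes 5 rose and 0 fell, with a median of 0.34. OAS1, a sensor of double-stranded RNA, rose from 6.64 and 6.72 to 7.26 and 7.34, by 0.62 (limma adjusted p = 0.00326), and ISG15, a ubiquitin-like modifier, by 0.34. There were 2 rises without NCFM supernatant replicate 1 or medium replicate 2, and 3 without NCFM supernatant replicate 2. Of 30 unfolded protein response genes 6 rose and 0 fell, but 2 rose with eBayes without a trend, and the chaperone gene HSPA5 rose by 0.22. Of 38 integrated stress response genes 6 rose and 4 fell (2 fell without NCFM supernatant replicate 1 or medium replicate 1), with the pseudokinase gene TRIB3 up by 0.67 and PSAT1, of serine synthesis, up by 0.87, although another PSAT1 probe set differed by -0.26. Of 36 oxidative phosphorylation genes 1 rose and 5 fell. Falls numbered 0 without NCFM supernatant replicate 1, 2 without replicate 2, 2 without medium replicate 1 and 1 without medium replicate 2, and with eBayes without a trend limma called 0 of them, with 6 at an unadjusted p under 0.05.

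Whether these differences were particular to the NCFM strain was asked by comparing its supernatant with those of B. lactis 420 and Ls-33, which share time, dilution, array set and RNA input. Few genes could be told apart between the supernatants on these arrays. Against B. lactis 420, limma called 3 of 11865 genes (0.0253%), 2 higher (0.0169%) and 1 lower (0.00843%), while 770 had an unadjusted p under 0.05. Against Ls-33 it called 4 (0.0337%), 1 higher (0.00843%) and 3 lower (0.0253%), while 766 had such a p. None of these reached 2-fold. The 95% interval of the difference stayed within 2-fold for 99.4% of genes in both comparisons, with a median width of 0.32 on either side. At that median width a difference under 0.32 could not be told from 0, while narrower intervals of other genes could resolve smaller ones. MMP1 read 6.80 and 7.21 with B. lactis 420 and 7.30 and 7.28 with Ls-33, beside 7.31 and 7.36 with NCFM. CYP1B1 read 8.84 and 9.0, and 8.83 and 9.04, beside 8.84 and 8.58 with NCFM. The differences from B. lactis 420 and Ls-33 were 0.33 and 0.046 for MMP1, with 95% intervals of -0.088 to 0.75 and -0.37 to 0.46, and -0.22 and -0.23 for CYP1B1, with intervals of -0.46 to 0.023 and -0.47 to 0.014.

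**Figure D4:**
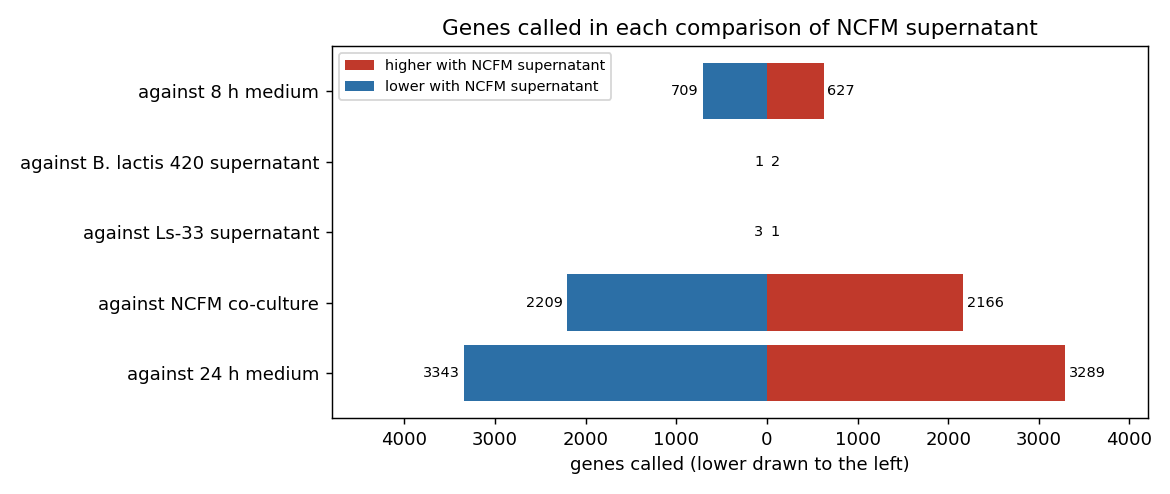
Number of genes called by limma as higher (red, right) or lower (blue, left) with NCFM supernatant against each of 5 reference groups, with the counts printed at the bars. Against the other supernatants 3 and 4 genes were called, and 1336 against 8 h medium.

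CCL20 was the gene that set NCFM apart from both other supernatants. It read 9.18 and 9.04 with NCFM supernatant, 9.62 and 9.52 with B. lactis 420, 9.99 and 10.09 with Ls-33 and 9.53 and 9.52 in 8 h medium. The NCFM arrays were the lowest of the 8. The difference was -0.93 ± 0.074 (SE) from Ls-33 (limma adjusted p = 1.26e-06) and -0.46 ± 0.074 from B. lactis 420 (adjusted p = 0.0304). The call against Ls-33 held in every fit run. That against B. lactis 420 was lost in each fit that left out 1 array (adjusted p from 0.0987 to 0.457), with only the 2 groups compared (0.156), with a replicate block (0.0521) and with eBayes without a trend (0.494). NFKBIZ, an atypical IkB protein that co-activates NF-kB targets, read 8.22 and 8.33 with NCFM, 8.52 and 8.69 with B. lactis 420 and 8.94 and 8.97 with Ls-33. It differed by -0.68 ± 0.074 from Ls-33 (limma adjusted p = 1.09e-04), also in every fit run, and by -0.34 from B. lactis 420 (adjusted p = 0.425). Over the NF-kB list the median difference from Ls-33 was -0.15, beside -0.010 over all genes, and 2 of 31 members were called lower.

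The other calls between supernatants were less firm. SUMF2, a paralogue of the sulfatase-modifying factor, read 9.83 and 9.47 with NCFM, 9.72 and 9.27 with B. lactis 420, 10.69 and 10.38 with Ls-33 and 10.45 and 10.46 in medium, so the Ls-33 and medium arrays were high and the others low. Its difference of -0.89 from Ls-33 (limma adjusted p = 0.043) was lost without NCFM supernatant replicate 2 (adjusted p = 0.609) or either Ls-33 array (0.557 and 0.0979). LINC01091, a long non-coding RNA, read 6.73 and 7.14 with NCFM and 5.87 and 6.01 with Ls-33 (0.99, limma adjusted p = 0.0294), and was lost without NCFM supernatant replicate 2 (adjusted p = 0.437) or either Ls-33 array (0.197 and 0.557). SELENOW, a small selenoprotein, read 8.41 and 8.35 with NCFM, 7.95 and 7.47 with B. lactis 420, 7.79 and 7.90 with Ls-33 and 9.20 and 9.19 in medium. Its difference of 0.67 from B. lactis 420 (limma adjusted p = 0.0479) held only without replicate 1 of that strain (adjusted p = 0.00124) among the fits that leave out 1 array. CRIM1, a membrane protein that binds BMP ligands, read 11.40 and 11.37 with NCFM but 10.92 and 10.98 with B. lactis 420 (0.43, limma adjusted p = 0.0138). Its call was lost in each fit that left out 1 array, with differences of 0.40 to 0.46. Other CRIM1 probe sets overlapped between these supernatants. They read 9.17 and 9.01 with NCFM against 9.07 and 9.33 with B. lactis 420, and 10.48 and 10.15 against 10.29 and 10.61. Another SELENOW probe set did not overlap, at 8.09 and 8.01 with NCFM against 7.72 and 7.75 with B. lactis 420.

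**Figure D5:**
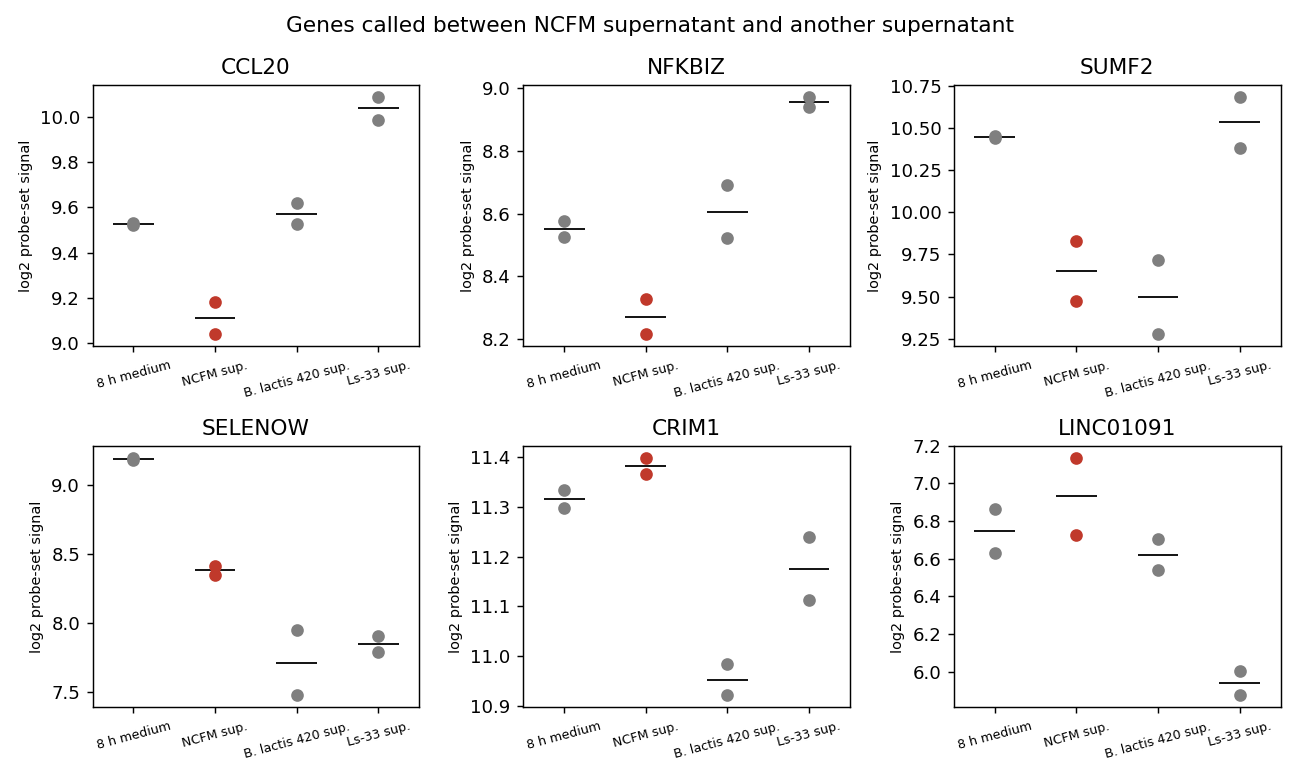
Log2 signal of each array (points) and group mean (line) for the 6 genes called between NCFM supernatant and another supernatant, in 8 h medium and the 3 supernatants, with NCFM in red and each axis cut to its gene's range. CCL20 is lowest with NCFM, at 9.18 and 9.04, and SELENOW is highest in medium, at 9.20 and 9.19.

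The supernatant and the living strain were compared directly, with time and format differing together. limma called 4375 genes (36.9%), 2166 higher (18.3%) and 2209 lower (18.6%) with supernatant, of which 531 differed at least 2-fold. SLC2A5 read 9.48 and 9.51 with supernatant and 4.35 and 4.52 with NCFM cells, and SLC51A 10.56 and 10.70 against 5.70 and 6.42. APOA4 read 12.73 and 12.82 against 9.24 and 9.09, TNFSF10, the death ligand TRAIL, 7.29 and 7.58 against 3.36 and 2.80, and ARG1, an arginase, 6.84 and 6.40 against 3.09 and 3.26. LGALS14, a galectin, read 10.34 and 10.43 against 6.35 and 6.06. In medium for 8 h these genes read closer to the supernatant than to the live-cell levels, as with 9.0 and 9.15 for SLC2A5 and 7.44 and 7.54 for TNFSF10. Of the 29 brush border genes 20 were higher and 2 lower with supernatant than with live cells, with a median of 0.81. RSRP1, an arginine and serine rich protein, was among the genes lower with supernatant, at 7.32 and 7.21 against 9.68 and 9.85. The actin 3' to 5' difference was 1.25 and 1.54 with live cells and 1.02 and 1.08 with supernatant, and its part here was not tested. LRRC15 and CYP1B1 were higher with supernatant by 3.14 and 0.99.

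The only medium kept for 24 h lies in the other array set, so time is matched but array set and RNA input cannot be told apart from the treatment. limma called 6632 genes (55.9%) between NCFM supernatant and this group, 3289 higher (27.7%) and 3343 lower (28.2%). Between the 2 media, 6611 genes (55.7%) were called. The actin 3' to 5' difference was 1.90 to 2.17 there, and the 18S rRNA control probe set read 5.78 to 6.56 in that array set against 12.4 to 13.5 in the probiotic set. MMP1 read 6.76, 6.91 and 6.73 in 24 h medium, closer to the supernatant arrays than to the 8 h medium arrays, and SLC7A11 read 7.03, 7.14 and 7.04, within the range of the supernatant arrays. HAAO was low there too, at 4.47, 4.58 and 4.30. LRRC15 read 5.91, 5.57 and 5.16, AKR1B10 3.64, 3.46 and 3.71 and CYP1B1 7.08, 7.76 and 7.53, all below the supernatant arrays. Other CYP1B1 probe sets were split. A dim one read 4.40, 4.27 and 4.58 in 24 h medium, above its supernatant arrays at 4.18 and 4.01. A brighter one read 7.37, 7.52 and 7.41, below its supernatant arrays at 7.84 and 8.13. TF, at 10.84, 10.86 and 10.80, and DEFB1, at 9.91, 9.82 and 9.89, were far above both groups of the probiotic set. CCL20 read 9.72, 9.69 and 9.73, above the NCFM supernatant arrays. These comparisons share arrays, so their agreement is not independent.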

How the data were processed

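RNA of Caco-2 cells was measured on Affymetrix HG-U133 Plus 2.0 arrays. The deposited values are log2 probe-set signals from RMA, a tool that the submitters' processing notes name without a version. Whether RMA was run on both array sets at once is not given in the sources used here. The number of arrays limits precision, and no scanner output entered.

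Of 54675 probe sets, 41091 had 1 gene symbol, 1801 several and 11721 none, besides 62 controls. Symbols were updated through the RefSeq table of GRCh38.p14, without a match for 54. Each of 19775 genes took its probe set of highest mean, avoiding the suffix _x_at where possible. Genes with a mean at or above the 40th percentile were tested (11865; floor log2 2.74).

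limma 3.58.1 in R 4.3.3 (lmFit, eBayes with a trend) was fitted over the 14 arrays of the probiotic set, or all 20 where 24 h medium entered, with calls at a Benjamini-Hochberg adjusted p under 0.05. Standard errors are those of the fit. It was tested on simulated data. Leaving out 1 of 2 arrays assumes that the other varies like the other groups. Alternatives were other filters, no trend, only the 2 groups compared, joint quantile normalization, every named probe set, a replicate block and leaving out each array.

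Named genes were the 12 largest rises and 12 largest falls (6 in other comparisons) among called genes whose groups do not overlap, up to 4 called members of each of 42 lists by adjusted p, and 22 set genes, and the text gives most of them. Cell markers not named by this rule are given as levels. Members and lists were chosen with earlier results of these data known. Lists are described by counts and medians without a test.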

Additional observations from a re-analysis of the deposited data

Results flagged for a closer look

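Differences between groups under a direct test are collected here. Between supernatants, SELENOW (0.67), CRIM1 (0.43) and CCL20 (-0.46) differed between NCFM and B. lactis 420 on the log2 scale. Other probe sets of CRIM1 overlapped between these groups, and another of SELENOW did not. LINC01091 (0.99), CCL20 (-0.93), SUMF2 (-0.89) and NFKBIZ (-0.68) differed between NCFM and Ls-33, of which CCL20 and NFKBIZ were called in every fit run.

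Between NCFM supernatant and live NCFM cells, 4375 genes differed by limma. The largest log2 differences with supernatant higher were SLC2A5 at 5.06, SLC51A at 4.57, TNFSF10 at 4.35, LGALS14 at 4.18, APOA4 at 3.61 and ARG1 at 3.45. Those with supernatant lower were SNHG19, a snoRNA host gene, at -2.62, RSRP1 at -2.50, ATP5F1C at -2.48, GVQW3 at -2.38, VAMP1 at -2.25 and the ephrin receptor gene EPHA4 at -2.23. The ATP5F1C probe set used was dim, with means of 5.80 with supernatant and 8.28 with live cells. Brighter ATP5F1C probe sets, with the suffix _x_at, overlapped between these groups. They read 12.21 and 12.20 with supernatant against 12.29 and 12.17 with live cells, 12.23 and 12.27 against 12.30 and 12.20, and 12.42 and 12.41 against 12.48 and 12.38. No group had 4 to 10 arrays, so single arrays were not screened as outliers.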

How the results depend on the processing

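Against 8 h medium the 1336 calls became 489 to 863 when 1 array was left out and 756 with eBayes without a trend, with 1121 to 1668 in the other settings. Of the 1336, 472 to 758 were shared with the fits that leave out 1 array and 690 with the fit without a trend, and 0 turned their direction there. Against B. lactis 420 supernatant the 3 calls became 0 to 3 when 1 array was left out and 1 with only the 2 groups compared. They became 0 with eBayes without a trend, where limma gave 799 genes with an unadjusted p under 0.05. Fits without NCFM supernatant replicate 1, replicate 2 or B. lactis 420 replicate 2 gave 0 calls, with 888, 478 and 690 genes at an unadjusted p under 0.05. Against Ls-33 the 4 calls became 2 to 7 when 1 array was left out (7 without NCFM supernatant replicate 1) and 2 with eBayes without a trend. Testing every named probe set, which raises the number of tests, gave 7940 calls against NCFM cells (4375 before), 13096 against 24 h medium (6632) and 13094 between the media (6611).

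Replicate numbers did not pair the arrays, since deviations of same-numbered arrays correlated at -0.104 to 0.057. With the number as a replicate block, calls were 1278 against 8 h medium, 1 against B. lactis 420 supernatant, 6 against Ls-33 supernatant, 4338 against NCFM cells, 5717 against 24 h medium and 5523 between the media. Crossing the numbers of the NCFM cells, chosen after seeing the data, gave 4313.

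Other probe sets of named genes went the other way, without a call, for ARNT (-0.31 in 2 of 5), BCL2L11 (0.11 and 0.24), BMP7 (0.014 and 0.13), CLDN1 (0.018), COL12A1 (0.014 and 0.017), COX5A (-0.0072), DNAJC10 (-0.033), EGR1 (-0.080), ELOVL5 (0.071 and 0.063), ERAP2 (-0.0085), ERBB3 (0.047 and 0.0035) and ID2 (0.11). The same held for LSS (0.036), OCLN (-0.026), PATJ (-0.25), PDK1 (-0.22), PSAT1 (-0.26), PTGS1 (0.083), PTGS2 (-0.079), SREBF1 (0.035), TFRC (-0.19) and TNFRSF9 (-0.0076). Leaving out 1 array turned some uncalled genes, with ranges of -0.14 to 0.86 for CXCL8, -0.084 to 0.055 for MIR146A and -0.017 to 0.14 for PTGS2. With only the 2 groups compared, EGR1 (adjusted p = 0.0309) and SLC2A5 (0.00191) passed, and other probe sets of CXCL8 (1.61) and SLC2A5 (0.74) were called although the ones used were not. No direction of a named gene turned with the filter, the trend, the groups in the fit, the joint normalization or the block. The cause of these changes was not tested. Signal near the floor and 2 arrays a group limit what could be called.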

Other observations

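Further gene lists are given by their counts against 8 h medium, beside 5.28% of all genes higher and 5.98% lower. Of 31 ribosome biogenesis genes 0 rose and 2 fell, of 20 cholesterol synthesis genes 0 rose and 1 fell, and of 20 Wnt target and stem cell genes 1 rose and 1 fell. Of 23 BMP and TGF-beta genes 0 rose and 3 fell, with ID1, an inhibitor of differentiation factors, at -0.42 (limma adjusted p = 2.91e-04). Of 17 fatty acid synthesis genes 0 rose and 3 fell. Of 29 fatty acid oxidation genes 2 rose and 1 fell, of 18 iron handling genes 2 rose and 1 fell, of 21 heat shock genes 2 rose and 1 fell and of 17 antigen presentation genes 2 rose and 1 fell. Of 12 EGF receptor genes 2 rose and 2 fell. The 14 clock genes and the 19 intestinal lineage factors each had 1 rise and 1 fall. Of 13 metallothionein and zinc transporter genes limma called 0, with 3 at an unadjusted p under 0.05. When 1 array was left out, each of these lists held 0 to 3 calls in each direction.

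POU2F3, a tuft cell factor, was higher with supernatant by 0.79 from 2.65 and 2.96, near the floor (limma adjusted p = 0.0195), and was lost without NCFM supernatant replicate 1 (adjusted p = 0.202) or medium replicate 1 (0.152). Of 13 measured fibroblast and endothelial markers, 5 lay under the floor in each group, and of 8 tested 1 rose and 0 fell. The rise was in LUM, a proteoglycan gene of connective tissue, from a mean of 11.10 in medium to 11.42 with supernatant. Its call was lost with eBayes without a trend (limma adjusted p = 0.108). Another LUM probe set read 5.69 and 5.50 against 6.02 and 6.12 and was not called (0.47, adjusted p = 0.134). DCN, another such proteoglycan gene, was under the floor in both groups.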
